A study of Mus musculus with 30 samples.

Results

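Mouse cell cultures that the labels call leg muscle were profiled at 5 hours on the A and B chips of an Affymetrix oligonucleotide set, and the arrays at 24 h are set here against those at 0 h. These are 12 of the 30 arrays of the series, 6 on each chip, chosen by the hour in their titles, with 3 replicates per hour on each chip. The titles give no strain, age, treatment, medium or cell line, and no event that starts the clock, so the 0 h and 24 h groups differ by hour as far as the labels go. The labels do not tell whether a replicate is a culture or an animal of its own. The p-values therefore rest on the spread among the arrays of each chip alone, pooled over all 5 hours, and that spread may be technical. Values are the deposited probe set intensities. All arrays had nearly the same trimmed mean, between 495.9 and 498.6 without control probe sets, so the values cannot show whether cells held more or less RNA in all.

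Skeletal muscle forms when dividing myoblasts leave the cell cycle, fuse into multinucleate myotubes and fill them with contractile filaments. The bHLH factors Myf5 and Myod1 commit cells to this path, myogenin (Myog) and the MEF2 factors carry it out, and the Id proteins hold bHLH factors inactive by binding their partners. Newly formed myotubes first use embryonic and newborn forms of myosin and troponin, and add adult forms and the calcium release machinery as they mature. A change of level in RNA from a whole culture may come from more cells of a kind or from more RNA per cell, and these cannot be told apart here.

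Defining genes of differentiating skeletal muscle were bright from the start. Myog, the bHLH factor of differentiation, had intensities of 10436, 10929.7 and 9594 at 0 h and 10863, 11700.1 and 10333 at 24 h. Myod1 ran at 8182, 9300.3 and 5693 at 0 h and 7015, 7470.3 and 5571 at 24 h. The muscle acetylcholine receptor subunit Chrna1 ran at 10119, 10689 and 7859 at 0 h and 10707, 10859 and 10532 at 24 h. All 3 were thus far above the array medians, which lay between 154.75 and 170.4 on the A chip, at both hours, and none passed the test (adjusted p = 0.804, 0.732 and 0.666). The labelled tissue was thus matched by its markers at both hours.

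Replicate 3 stood apart from replicates 1 and 2 at both hours. Across probe sets of the A chip, the deviation of replicate 3 from its group mean at 0 h correlated at 0.60 with that of replicate 3 at 24 h. It correlated at -0.50 with those of replicates 1 and 2 at 24 h. Deviations from a group mean cancel within an hour, so these negative values follow from the positive one. On the B chip the correlation with replicate 3 was 0.289, and those with replicates 1 and 2 were -0.115 and -0.217. Probe sets are not independent, so these are descriptions. What sets replicate 3 apart is not given in the labels. Each result is therefore given from the fit over all arrays and, where it matters, from a fit with replicate 3 as a batch term, called the batch fit below.

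At 24 h, 362 of 13575 tested probe sets on the A chip (2.67%) passed an adjusted p of 0.05 in limma, 218 of them higher (1.61%) and 144 lower (1.06%). On the B chip 115 of 13506 passed (0.851%), 80 higher (0.592%) and 35 lower (0.259%). Counting each gene once, 197 of 12446 genes rose (1.58%) and 116 fell (0.932%), and the median log2 change of all genes was -0.05. In the batch fit 661 of these genes rose (5.31%) and 747 fell (6%). An unadjusted p under 0.05 in limma, in either direction, was reached by 2232 of 13575 probe sets on A and 1480 of 13506 on B. Counts at that p in the lists below are to be read beside these. The batch fit called 814 higher (6%) and 957 lower (7.05%) on A and 312 higher (2.31%) and 244 lower (1.81%) on B, and kept all 362 and all 115 calls of the fit over all arrays. With the replicate number as a block, which pairs arrays of the same number, 1663 probe sets passed on A. Median centring of each array moved the split on A to 321 higher and 104 lower. Leaving out arrays of replicates 1 or 2 cost most of the calls on A, down to 60 without 24 h replicate 1, 67 without 24 h replicate 2, 82 without 0 h replicate 2 and 137 without 0 h replicate 1, while 636 passed without 24 h replicate 3. On B, 34 to 37 passed without any 1 array of replicates 1 and 2, and 211 without 24 h replicate 3. Of the 92 named genes that passed, 32 did so whichever array was left out.

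Among called probe sets, the direction was shared but the size was not. The same arrays chose these probe sets, so shared directions and non-overlap follow largely from the selection and are descriptions. A change per replicate is taken between arrays of the same number, which the labels do not state to be paired. All 218 rises on A went the same way in each of the 3 replicates, and 197 of them were smaller in replicate 3, the median log2 change being 1.35 in the first 2 replicates against 0.72 in replicate 3. Of the 144 falls on A, 143 went the same way in each replicate and 114 were smaller in replicate 3 (medians -1.06 and -0.69). All 80 rises and all 35 falls on B also kept 1 direction in each replicate. The 24 h arrays lay wholly above the 0 h arrays for all 218 rises on A, as they did for 9.58% of all tested probe sets on that chip, and wholly below for 143 of the 144 falls against 11.8% of all. On B no call overlapped, where 8.28% of all tested probe sets lay wholly above and 7.92% wholly below. In a fit of replicates 1 and 2 alone, 885 probe sets rose (6.52%) and 1151 fell (8.48%) on A, and 375 rose (2.78%) and 321 fell (2.38%) on B.

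The largest rises on A included several parts of the contractile apparatus. Lmcd1, an LIM and cysteine-rich domain protein of heart and skeletal muscle that acts in calcineurin signalling, had intensities of 97.4, 140.2 and 202 at 0 h and 1416, 1432 and 845 at 24 h. The 24 h arrays were all above the 0 h arrays, with replicate 3 the lowest at 24 h (log2 change 2.85, SE 0.36, adjusted p = 0.00196). Fn3k, a kinase that removes early sugar adducts from proteins, had 8.5, 52.9 and 165 at 0 h and 548, 541 and 378 at 24 h, with replicate 1 at 0 h the lowest (log2 change 2.60, SE 0.56, adjusted p = 0.0235). Its probe set on B had a log2 change of 0.90 and did not pass the test (adjusted p = 0.439). Myh8, the newborn myosin heavy chain, read 49.7, 36.2 and 177 at 0 h and 415, 415 and 782 at 24 h, highest in replicate 3 at both hours (log2 change 2.41, SE 0.56, adjusted p = 0.0333). The other 9 of the 12 largest rises on A, between 2.13 and 2.41 on the log2 scale, were Cox6a2, Fgf21, Myh7, Myom2, Ankrd2, Actn2, Myoz2, Capn3 and Tm6sf1.

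On the B chip the muscle ankyrin repeat gene Ankrd23 rose most. Its intensities were 34.9, 71.5 and 436 at 0 h and 1644, 1853 and 1821 at 24 h, so replicate 3 began higher and all arrays at 24 h lay together (log2 change 3.37, SE 0.62, adjusted p = 0.0181). The next largest rises on B were Cfap52, a cilia and flagella protein (2.48), Tecrl, an enoyl-reductase-like protein of heart and skeletal muscle (2.24), Rap1gap2, which switches off the small GTPase Rap1 (2.13), and the uncharacterised 4930512H18Rik (2.07). A second probe set of Cfap52 had 1.58 and did not pass (adjusted p = 0.205). The calls of Fn3k, Myh8 and Ankrd23 ended without 0 h replicate 1 or 2 or 24 h replicate 1 or 2, and that of Myh8 also without 24 h replicate 3, with the highest adjusted p at 0.115 without 24 h replicate 2 (Fn3k), 0.175 without 0 h replicate 2 (Myh8) and 0.111 without 0 h replicate 1 (Ankrd23). The calls of Rap1gap2 and Tecrl were lost too, with up to 0.0736 without 0 h replicate 2 and 0.19 without 24 h replicate 1, whereas Lmcd1, Cfap52 and 4930512H18Rik passed whichever array was left out.

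**Figure D1:**
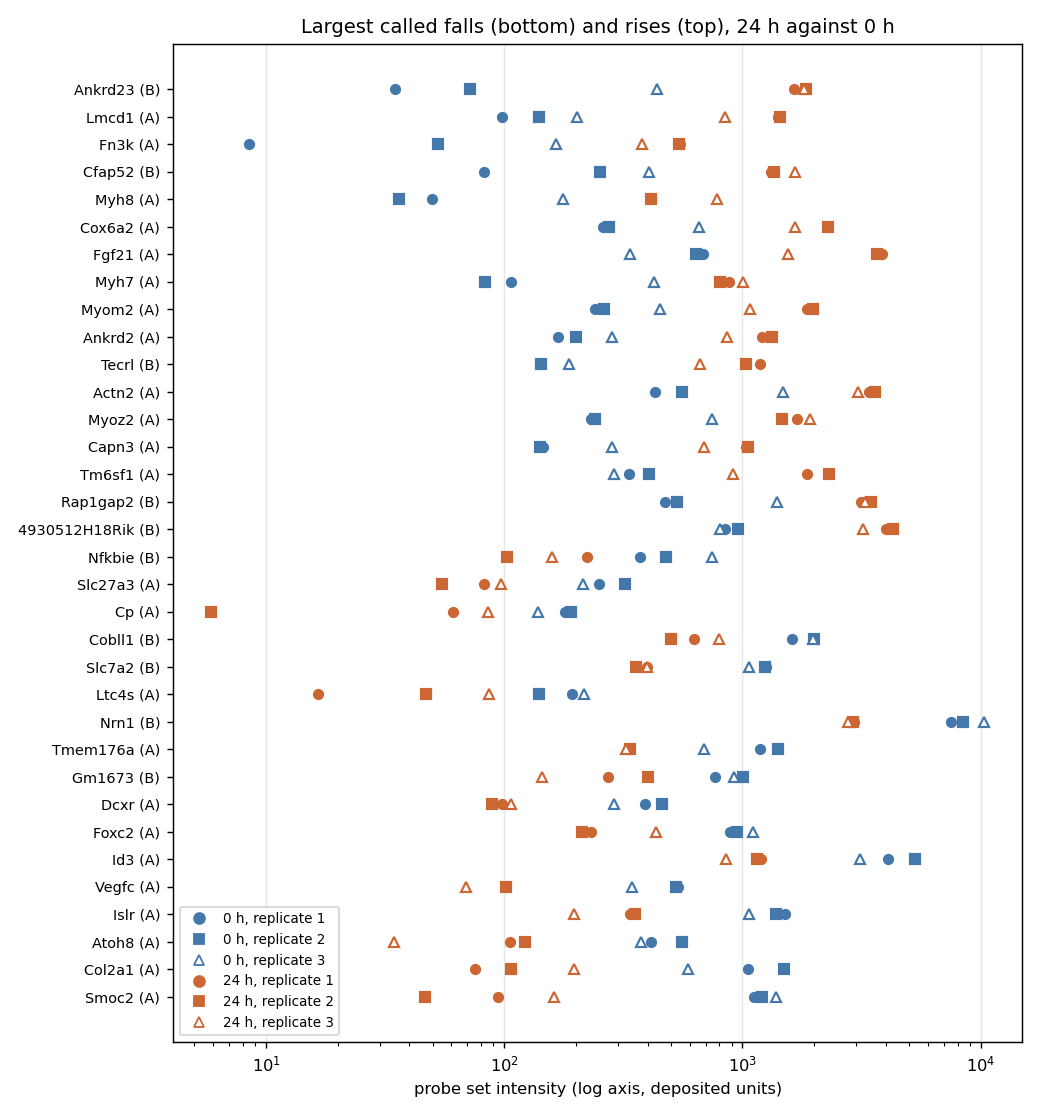
Probe set intensity (log axis) of each array at 0 h and 24 h for the 17 largest falls (bottom) and 17 largest rises (top) that passed the test without overlap, with the chip in brackets and replicate 3 as open triangles. Every 24 h array lies on the same side of all 0 h arrays for each gene, and Smoc2 and Ankrd23 change most.

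The stretches of 250 bases before the start site are shown for genes whose RNA rose, because E-boxes (CANNTG, read the same on both strands) are the sites that bHLH factors such as Myod1 and Myog bind. Of the 3 largest rises and 2 largest falls on A, RefSeq's promoter table of GRCm38.p6 held Lmcd1 and Myh8, and Ankrd23, Ckm and Fgf21 were added after their values were seen. Capitals mark each CANNTG in the first 4. In Fgf21 they mark instead a match to TGATGNAA, the core of the sites that CEBP and ATF factors share, on the reverse strand.
Lmcd1 (chr6:112273508-112273757, plus strand): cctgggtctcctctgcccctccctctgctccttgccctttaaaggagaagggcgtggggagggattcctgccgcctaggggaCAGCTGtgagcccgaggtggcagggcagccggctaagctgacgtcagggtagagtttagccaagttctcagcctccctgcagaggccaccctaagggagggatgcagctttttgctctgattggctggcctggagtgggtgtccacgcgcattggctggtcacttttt
Myh8 (chr11:67276874-67277123, plus strand): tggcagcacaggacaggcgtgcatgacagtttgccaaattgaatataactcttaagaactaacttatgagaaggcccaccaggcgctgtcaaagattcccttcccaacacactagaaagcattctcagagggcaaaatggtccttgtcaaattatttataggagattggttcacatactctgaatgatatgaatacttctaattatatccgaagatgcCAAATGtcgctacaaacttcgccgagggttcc
Ankrd23 (chr1:36535740-36535989, minus strand): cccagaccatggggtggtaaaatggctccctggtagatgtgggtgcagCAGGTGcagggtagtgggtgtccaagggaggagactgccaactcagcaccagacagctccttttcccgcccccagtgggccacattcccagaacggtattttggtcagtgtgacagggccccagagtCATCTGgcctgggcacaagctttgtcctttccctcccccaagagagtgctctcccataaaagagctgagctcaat
Ckm (chr7:19410844-19411093, plus strand): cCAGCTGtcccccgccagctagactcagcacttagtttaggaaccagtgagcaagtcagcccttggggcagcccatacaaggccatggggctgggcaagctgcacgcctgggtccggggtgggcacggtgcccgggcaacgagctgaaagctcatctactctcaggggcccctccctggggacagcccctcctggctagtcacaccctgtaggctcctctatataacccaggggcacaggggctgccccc
Fgf21 (chr7:45615491-45615740, minus strand): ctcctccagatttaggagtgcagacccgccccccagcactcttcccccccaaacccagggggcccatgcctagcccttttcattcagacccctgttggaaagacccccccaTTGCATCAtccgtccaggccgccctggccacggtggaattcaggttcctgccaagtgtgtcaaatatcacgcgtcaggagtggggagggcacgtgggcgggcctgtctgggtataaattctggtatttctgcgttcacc

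The E-box of Lmcd1 began 168 bases before its start, that of Myh8 32 bases before, and those of Ankrd23 202 and 75 bases before. A second start of Ankrd23 in the table had no CANNTG in its window. In Lmcd1 and Ckm the E-box read CAGCTG, a subset of CANNTG, and in Ckm it began 249 bases before the start. The Fgf21 match began 139 bases before the start, and the window also held 2 CANNTG, at 88 and 50 bases.

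Windows were on hand for 10060 of the 12446 tested genes, with up to several starts per gene. CANNTG occurred in 58.4% of their 12871 windows, in 70.6% of 201 windows of genes that rose, in 61.8% of 123 windows of genes that fell, and in 87.2% of 47 windows from the contraction and energy lists described next, where 49 genes rose and 35 of these had a window. CAGCTG was in 12.4%, 21.4%, 16.3% and 31.9% of the same 4 sets. Matches to the MEF2 motif, searched on both strands, were in 1.74%, 6.97%, 0.813% and 17.0%. TGATGNAA was in 2.01%, 3.48%, 2.44% and 6.38%. Over all 32851 windows of the table CANNTG was in 66.2% and the MEF2 motif in 2.92%. Several windows of a gene can overlap and base composition was not matched, so these shares are descriptions without a test.

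A gene is called measured where a probe set that names it alone passed the filter on dim probe sets. Over 7 lists of contraction and muscle energy genes, counting each gene once, 49 of 111 measured genes rose and 0 fell, with a median log2 change of 1.01. Of 9 measured genes of the embryonic and newborn sarcomere, 7 rose and 0 fell, with a median log2 change of 1.01. Myh3, the embryonic myosin heavy chain, ran at 3624, 3367 and 5236 at 0 h and 9986, 10187 and 9197 at 24 h (log2 change 1.28, SE 0.20, adjusted p = 0.0051), and the increase was smallest in replicate 3. Mybph, a myosin-binding protein H of developing muscle, had 2622, 2788 and 4789.7 at 0 h and 10196, 9790.2 and 8075 at 24 h (adjusted p = 0.0164). Tnnt2, the troponin T of heart and embryonic muscle, had 4575, 3805 and 5775 at 0 h and 9356, 8977 and 9514 at 24 h (log2 change 0.99, SE 0.19, adjusted p = 0.0135), while its probe set on B had 0.28 and did not pass. The other members that rose were Tnnt1 (1.01), Myl4 (1.36), Tnni1 (0.88) and Myh8. Tnnc1 and Actc1, troponin C and the cardiac actin, did not pass, with log2 changes of 0.54 and 0.29 from intensities of at least 8349 at 0 h. Without any 1 array of replicates 1 and 2, only Myh3 of these 7 passed, and the highest adjusted p was 0.0866 for Tnnt2, 0.0956 for Mybph and 0.09 for Tnnt1, each without 0 h replicate 2.

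Genes of adult fast fibres also rose in part. Of 9 measured, 5 rose and 0 fell (median 1.15). Myh1, the fast myosin heavy chain IIx, had 1289, 1286 and 2478 at 0 h and 4843, 5254 and 5603 at 24 h (log2 change 1.69, SE 0.28, adjusted p = 0.00678). Fast troponin C (Tnnc2) had 1597, 1565 and 3447 at 0 h and 7359.9, 7183 and 7976 at 24 h (log2 change 1.86, SE 0.36, adjusted p = 0.0148). In both genes replicate 3 was highest at 0 h and also at 24 h. Fast troponin T (Tnnt3) rose by 1.24, fast troponin I (Tnni2) by 1.82 and the fast alpha-actinin Actn3 by 1.15. Mylpf and Myl1, fast myosin light chains that were already at 7834.5 to 9720 at 0 h, had log2 changes of 0.70 and 0.46 without passing, and Myh4 and Myoz1 were dim at both hours. Myh1 and Tnnt3 passed whichever array was left out. Tnnc2 and Tnni2 lost their calls without any 1 array of replicates 1 and 2, with up to 0.0933 and 0.159 without 0 h replicate 2.

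Of 6 measured genes of slow fibres and heart, 3 rose (median 1.77). Csrp3, muscle LIM protein of the Z-disc, had 416, 469.8 and 748 at 0 h and 1566, 1627 and 2081 at 24 h (log2 change 1.67, SE 0.22, adjusted p = 0.00239) and passed whichever of the 6 arrays was left out. Myh7, the slow myosin heavy chain, had 107, 82.8 and 424 at 0 h and 882, 806 and 1002 at 24 h (log2 change 2.28, SE 0.50, adjusted p = 0.025). Myoz2, a calcineurin-binding Z-disc protein, had 232, 240.2 and 746 at 0 h and 1687, 1464 and 1913 at 24 h (log2 change 2.17, SE 0.48, adjusted p = 0.0265). For both, replicate 3 started well above the other replicates and ended near them. Their calls were lost without any 1 array of replicates 1 and 2, up to 0.143 and 0.143 without 0 h replicate 2. Mybpc1, slow myosin-binding protein C, had 1.86 in the fit over all arrays without passing (adjusted p = 0.0677), and passed in the batch fit (0.00015). Tpm3 and Mybpc3 had log2 changes of -0.12 and -0.06.

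Of 36 measured genes of the Z-disc, titin and nebulin filaments, M-band and filament assembly, 11 rose and 0 fell (median 0.85), and in the batch fit 26 rose and 1 fell. Myom2, the M-band protein M-protein, had 241, 262 and 450.5 at 0 h and 1875, 1969.9 and 1074 at 24 h (log2 change 2.27, SE 0.34, adjusted p = 0.00405), and both of its probe sets on B also rose (2.45 and 2.35). Capn3, the muscle protease of the titin filament, had 145, 142 and 285 at 0 h and 1038, 1053 and 690.5 at 24 h (log2 change 2.16, SE 0.34, adjusted p = 0.00594), with 2.13 at its probe set on B. Actn2, the Z-disc alpha-actinin, had 431, 556 and 1481 at 0 h and 3414, 3607 and 3049 at 24 h (log2 change 2.19, SE 0.41, adjusted p = 0.0122), high at 0 h in replicate 3 alone. Lmod2 and Lmod3, which build actin filaments, rose by 1.80 and 1.90, Myom3 and Myom1 by 1.70 and 2.01, Tcap by 1.76, the myosin chaperone Unc45b by 1.40 and the filament cap Tmod1 by 1.08. The skeletal actin Acta1 did not pass at 0.56 (adjusted p = 0.0582), and desmin (Des), titin (Ttn) and Tpm1, all bright at 0 h, had log2 changes of 0.25, 0.46 and 0.23. The member that fell in the batch fit was Fbxo32, a ubiquitin ligase of muscle atrophy (-0.81, batch fit adjusted p = 0.00736), while its sister ligase Trim63 rose there (1.05, 0.0326). Lmcd1, Myom2 and Capn3 passed whichever of the 6 arrays was left out. Between 3 members (without 24 h replicate 1) and 18 (without 24 h replicate 3) passed with an array left out, and the call of Actn2 ended without any 1 array of replicates 1 and 2, up to 0.081 without 0 h replicate 2.

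Muscle ankyrin repeat proteins and small heat shock proteins guard and sense strained filaments. Of 10 measured, 5 rose and 0 fell (median 1.18). Ankrd2 had 168, 200.2 and 282 at 0 h and 1206, 1327 and 864 at 24 h (log2 change 2.25, SE 0.21, adjusted p = 0.000216). The paralog Ankrd1 was bright at both hours, 7723, 8279 and 4479.8 at 0 h and 5999.5, 6387 and 5606 at 24 h, with a log2 change of -0.14 that did not pass. So 2 of the 3 measured family members rose steeply from low levels while Ankrd1 was bright throughout and its groups overlapped. Hspb3 had 275, 205 and 376 at 0 h and 1296, 1156 and 695 at 24 h (log2 change 1.77, SE 0.29, adjusted p = 0.00678), Hspb7 had 118, 118 and 245 at 0 h and 529, 609 and 635 at 24 h (log2 change 1.77, SE 0.30, adjusted p = 0.00678), and Hspb2 rose by 1.35. Cryab and Hspb8 passed in the batch fit alone (0.79 and 1.01), and Hspb6 fell there (-0.41, 0.0438). Hspb3 missed the threshold without 24 h replicate 1 (0.051), whereas Ankrd2 and Hspb7 passed whichever of the 6 arrays was left out.

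Excitation of the membrane is coupled to calcium release from an internal store. Of 22 measured members of this machinery, of 28 listed, 10 rose in the fit over all arrays, 17 rose in the batch fit, and 0 fell in either (median 1.06). The arrays at 24 h lay wholly above those at 0 h for 17 of the 22, as they did for 1193 of all 12446 genes. Of all genes 1.58% rose over all arrays and 5.31% in the batch fit. Sypl2 and Jph2, membrane proteins of the triad, had the smallest changes (0.11 and 0.08) and were lower at 24 h in replicate 3. Casq2, the calcium buffer of the sarcoplasmic reticulum lumen, had 1381, 1291 and 2993 at 0 h and 7623, 7755 and 5654 at 24 h (log2 change 1.97, SE 0.31, adjusted p = 0.0054). Hrc, a second luminal calcium-binding protein, had 620.2, 718 and 632 at 0 h and 2048, 1782 and 1403 at 24 h (log2 change 1.36, SE 0.22, adjusted p = 0.00678). Srl, the abundant luminal glycoprotein sarcalumenin, had 7859, 8109.7 and 13764 at 0 h and 30712, 35146 and 24159.5 at 24 h on B (log2 change 1.63, SE 0.27, adjusted p = 0.00941). These 3 sit inside the store, and in each all 24 h arrays lay well above the brightest 0 h array. Triadin (Trdn), which anchors the release channel, rose by 1.71, and its other A probe sets had 1.80 and 0.95 without passing. Sarcolipin (Sln), an inhibitor of the calcium pump, rose from a low level by 1.38, the voltage sensor's beta subunit Cacnb1 by 1.03, and the T-tubule protein Bin1 by 0.73. The release channel Ryr1 and the voltage sensor Cacna1s had 1.18 and 1.81 and passed in the batch fit alone (adjusted p = 0.000603 and 0.00886). Casq2 passed whichever of the 6 arrays was left out. Hrc missed without 24 h replicate 1 (0.051), Trdn was lost without 3 arrays and Srl without 4, with 0.076 and 0.0677 without 0 h replicate 2, and the count of members that passed ran from 1 (without 24 h replicate 1) to 13 (without 24 h replicate 3).

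**Figure D2:**
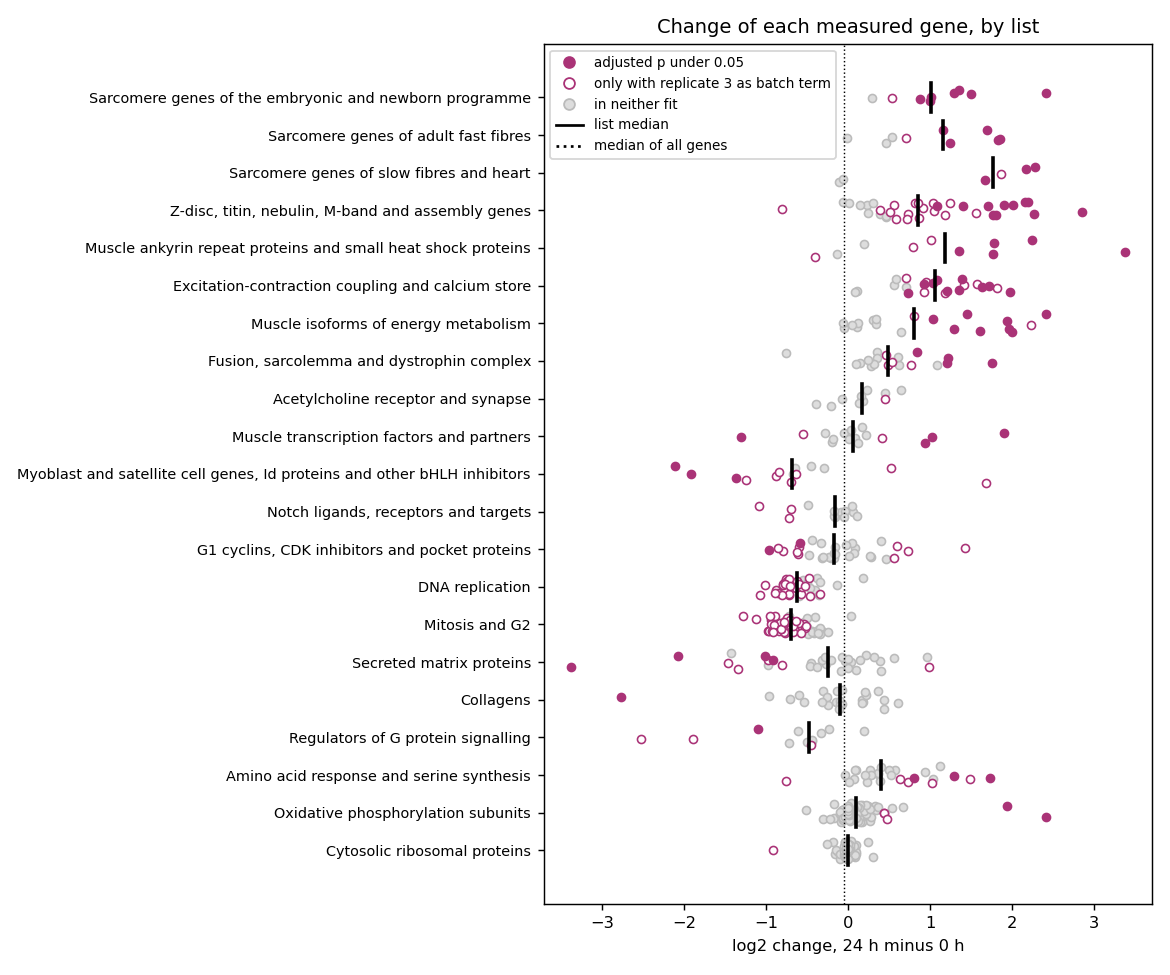
Log2 change from 0 h to 24 h (horizontal axis) of each measured gene in 21 lists, filled where the adjusted p was under 0.05 over all arrays and open where it was so in the batch fit alone, with the list median as a bar and the median of all genes dotted. Contraction lists lie to the right with medians of 0.85 to 1.77, and the DNA replication and mitosis lists lie to the left with open symbols only.

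Muscle forms of energy enzymes rose in part. Of 19 measured, 8 rose and 0 fell (median 0.80). Cox6a2, the muscle subunit 6a of cytochrome oxidase, had 259, 275 and 658 at 0 h and 2276, 2281 and 1666 at 24 h (log2 change 2.41, SE 0.33, adjusted p = 0.00333), and its probe set on B rose by 2.36. Myoglobin (Mb), the oxygen store, had 1068, 1133 and 2579 at 0 h and 6431, 6591 and 4939 at 24 h (log2 change 2.00, SE 0.41, adjusted p = 0.0188). Muscle creatine kinase (Ckm) had 676, 756 and 1338 at 0 h and 2691, 3365 and 2289 at 24 h (log2 change 1.61, SE 0.34, adjusted p = 0.0202), although a second probe set, on B, had 0.12 and did not pass. Muscle glycogen phosphorylase (Pygm) had 329, 363 and 379 at 0 h and 1049, 960.2 and 765 at 24 h (log2 change 1.29, SE 0.20, adjusted p = 0.00484). In each of the 4 the 24 h arrays lay above all 0 h arrays, and replicate 3 was lowest at 24 h. Cox8b, Fabp3, Pgam2 and Pfkm rose by 1.94, 1.96, 1.45 and 1.03, while a B probe set of Fabp3 had -0.05. Cox6a2 and Pygm passed whichever of the 6 arrays was left out, while the calls of Mb, Ckm and Pfkm ended without any 1 array of replicates 1 and 2, at up to 0.109 (without 0 h replicate 2), 0.116 (without 24 h replicate 2) and 0.226 (without 24 h replicate 1).

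Many muscle proteins have a broadly expressed partner coded by another gene. In 18 pairs with both genes measured, the muscle form had the larger log2 change in 17. In 9 pairs the muscle form rose and the partner did not pass in the fit over all arrays. In the batch fit the partners Mef2a and Cav1, of Mef2c and Cav3, rose as well (0.41 and 0.50, adjusted p = 0.00794 and 0.0352). Cox6a1, the broad form of subunit 6a, was bright and level at 9039, 10117 and 8409 at 0 h and 8839, 9688 and 9151 at 24 h (log2 change 0.01, SE 0.10, adjusted p = 0.978), beside the rise of Cox6a2. Actn1, the non-muscle alpha-actinin, had 6203, 6441 and 6494 at 0 h and 4526, 4794 and 6695 at 24 h (log2 change -0.28, SE 0.17, adjusted p = 0.474), beside the rise of Actn2. The brain form Pygb had -0.53 beside 1.29 for Pygm (adjusted p = 0.298, and 0.0172 in the batch fit). Both creatine kinases rose, Ckm by 1.61 and the brain form Ckb by 0.90, and so did the calcium pumps Atp2a1 (1.21) and Atp2a2 (0.93). Other Atp2a2 probe sets on A read 0.98, -0.43 and -0.23, of which the first passed. Hk1, the broad hexokinase, fell (-0.58, adjusted p = 0.0367) while Hk2 had 0.34. In 6 pairs neither form passed, among them Ampd1 and Ampd2, where Ampd1 had 2.23 with an adjusted p of 0.408. The batch fit changed 3 of these 6, calling Ampd1 (adjusted p = 0.031) and both filamins and both tropomyosins. There Flnc rose and Flna fell (0.58 and -0.70, adjusted p = 0.00322 and 0.016), and Tpm2 rose and Tpm4 fell (0.51 and -0.60, adjusted p = 0.00679 and 0.0479). Another Tpm2 probe set passed over all arrays (0.84, adjusted p = 0.0173). Differences within a pair were not tested. The call of Ckb ended without any 1 array of replicates 1 and 2 (up to 0.105 without 24 h replicate 1), that of Hk1 without any 1 of 5 arrays (up to 0.189 without 24 h replicate 1) and that of Atp2a2 likewise (up to 0.175 without 24 h replicate 2).

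**Figure D3:**
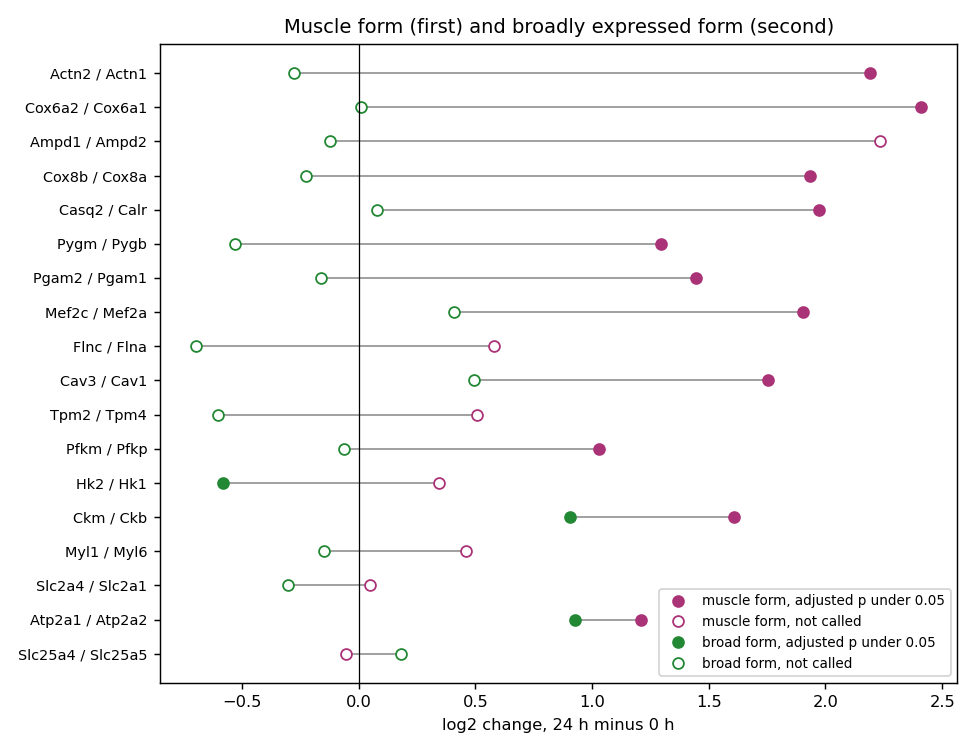
Log2 change from 0 h to 24 h (horizontal axis) of the muscle form and the broadly expressed form in 18 pairs, filled where the adjusted p was under 0.05. The muscle form lies to the right in 17 pairs, and both forms are filled for Ckm with Ckb and for Atp2a1 with Atp2a2.

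The muscle transcription factors did not move as a group. Of 16 measured, 3 rose and 1 fell, with a median of 0.06. Mef2c, the MEF2 factor of muscle differentiation, had 966, 811 and 1668 at 0 h and 4669, 5170 and 2999 at 24 h (log2 change 1.90, SE 0.30, adjusted p = 0.0054), and its other 4 probe sets on A rose by 1.88 to 2.26. Mef2d rose by 0.94 (adjusted p = 0.0167) and Tead4, a TEA-domain factor of muscle genes, by 1.02 (adjusted p = 0.0353). Other probe sets of Mef2d had 0.26 and 0.65, and another of Tead4 had 1.63, and none of these passed (adjusted p = 0.621, 0.277 and 0.0769). Myf5, the early commitment factor, fell, with 518, 314 and 279 at 0 h and 148, 96.4 and 143 at 24 h (log2 change -1.31, SE 0.30, adjusted p = 0.031). Beside it Myog and Myod1 were bright and overlapped, Myf6 was dim with a log2 change of 0.16, and Mef2a had 0.41 (adjusted p = 0.518) but rose in the batch fit (0.00794). In that fit 4 members rose and 2 fell. Mef2c passed whichever of the 6 arrays was left out, and the calls of Mef2d, Tead4 and Myf5 ended without any 1 array of replicates 1 and 2, at up to 0.107 (without 24 h replicate 2), 0.196 (without 24 h replicate 1) and 0.168 (without 24 h replicate 2).

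Inhibitors of bHLH factors and genes of undifferentiated myoblasts were mostly lower at 24 h. Of 14 measured, 3 fell and 0 rose in the fit over all arrays, and 8 fell and 2 rose in the batch fit, with a median of -0.69. Id3 had 4094, 5299.9 and 3119 at 0 h and 1202, 1153 and 851 at 24 h (log2 change -1.92, SE 0.23, adjusted p = 0.00196). Id1 had 4609.5, 5918 and 3883 at 0 h and 2305, 1939.9 and 1325 at 24 h (log2 change -1.37, SE 0.31, adjusted p = 0.0269). Atoh8, itself a bHLH factor, had 412, 560.2 and 374 at 0 h and 106, 122 and 34.4 at 24 h (log2 change -2.11, SE 0.27, adjusted p = 0.00196). In all 3 genes replicate 3 was lowest at both hours and the groups did not overlap. Id2 and Id4 also lay wholly lower at 24 h, with log2 changes of -1.24 and -0.88, as did Pax7, the satellite cell factor (-0.85), and these 3 passed in the batch fit alone (adjusted p = 0.00147, 0.00508 and 0.00277). Bhlhe40 and Megf10 rose in the batch fit (1.68 and 0.53). Id3 and Atoh8 passed whichever of the 6 arrays was left out, and Id1 passed only without 0 h replicate 3, with up to 0.146 without 0 h replicate 2.

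BMP ligands are known to induce Id genes. Of 27 measured genes of BMP, activin and TGF-beta signalling, 1 rose and 2 fell (median -0.04). Tgfb3 had 1273, 1255 and 1260.1 at 0 h and 3081, 3517 and 2306 at 24 h (log2 change 1.19, SE 0.19, adjusted p = 0.00636), with the 0 h arrays nearly equal. Smad6, an inhibitor induced by BMP, fell, with 309, 434 and 335 at 0 h and 150.1, 148 and 204 at 24 h (log2 change -0.99, SE 0.19, adjusted p = 0.0132), and Ltbp2, a binding protein of the matrix, fell by 1.00 on the log2 scale. Of 13 measured Notch ligands, receptors and targets 0 passed over all arrays, with 2 lower and 0 higher at an unadjusted p under 0.05 in limma, and Lfng, Dll1 and Notch3 fell in the batch fit (-1.09, -0.72 and -0.70). Tgfb3 passed whichever of the 6 arrays was left out, while Smad6 was lost without 3 arrays (up to 0.0866 without 0 h replicate 2) and Ltbp2 without 4 (up to 0.136 without 24 h replicate 2).

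Fusion and membrane genes rose in part. Of 19 measured, 4 rose and 0 fell (median 0.49). Caveolin-3 (Cav3), the muscle caveolin, had 498, 605 and 812 at 0 h and 2932, 2398 and 1474 at 24 h (log2 change 1.75, SE 0.34, adjusted p = 0.0152), and its partner Cavin4 rose by 0.84. Ncam1, the neural cell adhesion molecule of myotubes, rose by 1.21 at the probe set that stood for it, and its 5 other probe sets had 0.00 to 0.99 without passing. Jam2, an adhesion molecule, rose by 1.21, with 1.32 at its probe set on B, which passed, and 0.57 and 1.18 at others on A, which did not. The fusion proteins Mymk and Mymx were bright at 0 h and had log2 changes of 0.53 and 0.62 without passing, and Mymx in replicate 3 went from 8998 to 7883. Of 10 measured acetylcholine receptor and synapse genes 0 passed, with 1 higher and 0 lower at an unadjusted p under 0.05 in limma. The calls of Cav3, Cavin4 and Jam2 ended without any 1 array of replicates 1 and 2, and that of Jam2 also without 0 h replicate 3 (up to 0.0934 without 24 h replicate 1, 0.119 without 0 h replicate 2 and 0.217 without 24 h replicate 2), and that of Ncam1 without 3 arrays (up to 0.0769 without 24 h replicate 2).

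The largest falls were led by secreted and matrix genes. Smoc2, a calcium-binding matricellular protein, had 1113, 1209 and 1388 at 0 h and 94.5, 46.6 and 162 at 24 h (log2 change -3.38, SE 0.31, adjusted p = 0.000216), and a second probe set fell by 2.55 on the log2 scale. Col2a1, the collagen of cartilage, had 1056, 1494 and 589 at 0 h and 75.5, 106 and 197 at 24 h (log2 change -2.77, SE 0.40, adjusted p = 0.00385). Vegfc, a growth factor of lymphatic vessels, had 537, 528 and 342 at 0 h and 101, 102 and 69.1 at 24 h (log2 change -2.04, SE 0.28, adjusted p = 0.0033), and 2 probe sets on B fell by 2.48 and 2.19. In each of these 3 genes all 24 h arrays lay below all 0 h arrays. Islr, a secreted leucine-rich protein of mesenchymal cells, had 1509, 1383 and 1065 at 0 h and 338, 352 and 196 at 24 h (log2 change -2.08, SE 0.36, adjusted p = 0.00725). Fbln1 and Ecm1, matrix glycoproteins, fell by 1.01 and 0.91, while other Fbln1 probe sets had -0.55 and -0.59 and did not pass (adjusted p = 0.144 and 0.379). On B, Nrn1, the membrane-anchored neuritin, had 7525, 8442 and 10319 at 0 h and 2939, 2925 and 2779.6 at 24 h (log2 change -1.57, SE 0.22, adjusted p = 0.00476). All 7 passed whichever of the 6 arrays was left out.

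Most measured matrix genes did not pass over all arrays. Of 32 measured secreted matrix genes 4 fell and 0 rose, where 0.932% of all genes fell and 1.58% rose. In the batch fit 8 of the 32 fell and 1 rose, against 6% and 5.31% of all genes. The median of the 32 was -0.24, with -0.46 in replicates 1 and 2 and 0.28 in replicate 3. Of 25 measured collagens, Col2a1 alone fell, and 0 rose (median -0.10). The sign of both lists' medians thus differed between replicate 3 and the other replicates, since that of the collagens was -0.28 in replicates 1 and 2 and 0.17 in replicate 3. Other genes among the 12 largest falls on A were the mesenchymal factor Foxc2 (-1.71), the sugar reductase Dcxr (-1.66), Tmem176a (-1.58), leukotriene C4 synthase Ltc4s (-1.51), ceruloplasmin (Cp, -1.47) and the fatty acid transport protein Slc27a3 (-1.45). On B, Gm1673 (-1.61), the arginine transporter Slc7a2 (-1.50), Cobll1 (-1.48) and the NF-kappa-B inhibitor Nfkbie (-1.43) fell. A second probe set of Cobll1 had -0.26 and did not pass. Foxc2, Dcxr, Slc27a3, Slc7a2 and Cobll1 passed whichever of the 6 arrays was left out, while Nfkbie was lost without any 1 of them (up to 0.165 without 24 h replicate 2), Gm1673 without 0 h replicate 2 (0.0677), Ltc4s without 5 arrays (up to 0.242 without 24 h replicate 1), and Cp and Tmem176a without 4 (up to 0.147 and 0.112 without 0 h replicate 2).

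Genes of DNA replication and mitosis were lower in nearly every case, but none passed in the fit over all arrays. Of 39 measured DNA replication genes, 38 had negative log2 changes (median -0.62). In limma over all arrays 0 passed, with 6 lower and 0 higher at an unadjusted p under 0.05, and 3 passed without 24 h replicate 3. Of all tested probe sets on A, 2232 of 13575 had such an unadjusted p, in either direction. In the batch fit 27 fell and 0 rose, against 7.05% of probe sets lower on A in that fit. Of 49 measured mitosis genes 48 were negative (median -0.70), again with 0 passing in limma and 6 lower and 0 higher at an unadjusted p under 0.05. Without 24 h replicate 3 there was 1 that passed, and 32 fell and 0 rose in the batch fit. Over both lists, 88 genes, the median of the log2 changes stood at -0.84 for the first 2 replicates and at -0.42 for replicate 3.

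Top2a, the topoisomerase of dividing cells, shows at its probe set on A how the levels lay. Its intensities were 921, 953 and 2234 at 0 h and 402, 433 and 1886 at 24 h, and the array of replicate 3 at 24 h was brighter than those of replicates 1 and 2 at 0 h (log2 change -0.82, SE 0.59, adjusted p = 0.541, and 0.00665 in the batch fit). A dimmer Top2a probe set on B had -0.37 and passed in neither fit (adjusted p = 0.868, and 0.628 in the batch fit). There replicate 3 went up (0.63), against a mean of -0.87 for the other replicates. The mitotic kinase Cdk1 and the ribonucleotide reductase Rrm2, chosen after their values were seen, had replicate 3 highest at each hour, like Top2a on A. Cdk1 had 1877, 2309 and 3566 at 0 h and 907, 884 and 2693 at 24 h, with overlap (log2 change -0.93, batch fit adjusted p = 0.00184). Rrm2 had 4077, 4271 and 4829.7 at 0 h and 2182, 2247 and 3399 at 24 h, without overlap (log2 change -0.77, adjusted p = 0.0873, and 0.0026 in the batch fit). Summed over the measured mitosis genes, intensities ran from 40890 to 82000 at 0 h and from 22740 to 61950 at 24 h.

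Of 31 measured G1 genes, 2 fell over all arrays (median -0.17). Ccne1, the cyclin of S phase entry, had 459, 613 and 434 at 0 h and 239.7, 226 and 259 at 24 h (log2 change -0.96, SE 0.21, adjusted p = 0.0269), and Cdk4 fell by 0.59. Further probe sets of Cdk4 had -0.49 and -0.53 and the one of Ccne1 on B had -0.77, and none of these passed. Ccnd1, cyclin D1, had 3108, 3584 and 4200.4 at 0 h and 1827, 1991 and 3572 at 24 h, overlapping, with a log2 change of -0.61 (adjusted p = 0.23, and 0.00463 in the batch fit). The CDK inhibitor Cdkn1a was bright throughout at 9266, 9860.3 and 7879.6 at 0 h and 11792, 11572 and 9137 at 24 h (log2 change 0.26, SE 0.17, adjusted p = 0.497, and 0.124 in the batch fit). A dimmer Cdkn1a probe set on A had 0.62 and passed in the batch fit alone (adjusted p = 0.296 and 0.0047). The related inhibitor Cdkn1c, chosen after its values were seen, had 2592, 2248 and 964 at 0 h and 6393, 6640 and 2655 at 24 h, higher at 24 h in every replicate and dimmest in replicate 3 at both hours, and passed in the batch fit alone (1.43, adjusted p = 0.17 and 0.000539). The calls of Ccne1 and Cdk4 ended without any 1 array of replicates 1 and 2, at up to 0.154 without 0 h replicate 2 and 0.175 without 24 h replicate 2.

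**Figure D4:**
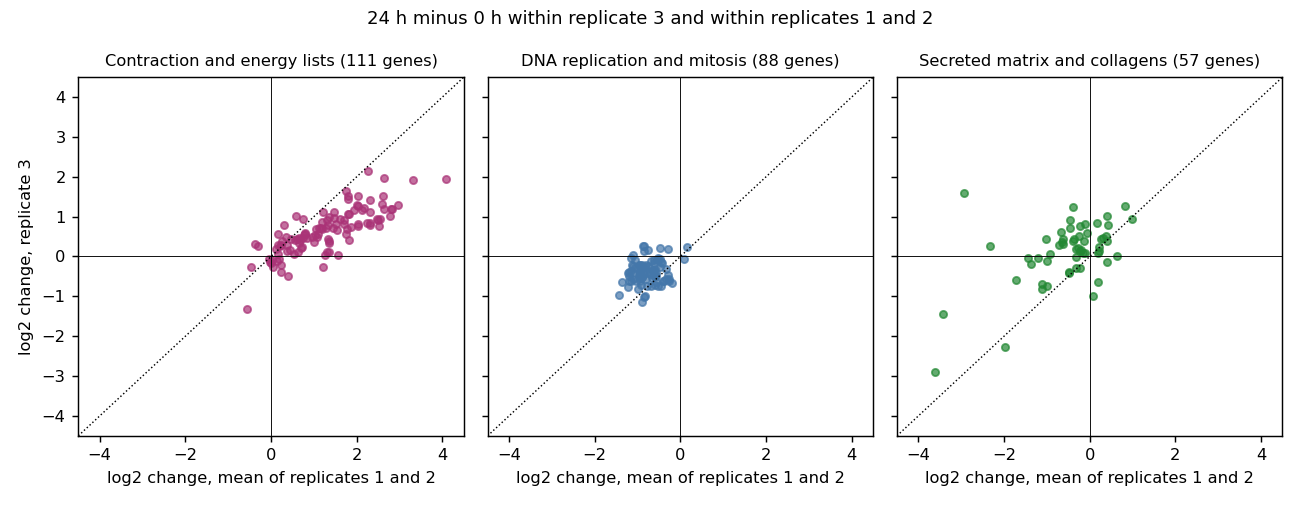
Log2 change from 0 h to 24 h in replicate 3 (vertical axis) against the mean of replicates 1 and 2 (horizontal axis) for genes of the contraction and energy lists (111), of DNA replication and mitosis (88), and of the secreted matrix and collagen lists (57), with the line of equal change dotted. Medians are 1.25 and 0.67, -0.84 and -0.42, and -0.31 and 0.21 for replicates 1 and 2 and for replicate 3, so the first pair of sets keeps its sign and the last does not.

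Most secreted factors and regulators of signalling did not pass over all arrays. Of 23 measured growth factors and stress hormones, 2 rose and 2 fell, where 1.58% of all genes rose and 0.932% fell. In the batch fit 2 of the 23 rose and 6 fell, against 5.31% and 6% of all genes. Fgf21, a metabolic hormone that stressed muscle and liver release, had 682, 638 and 337 at 0 h and 3858, 3659.8 and 1557 at 24 h (log2 change 2.34, SE 0.45, adjusted p = 0.0135), and replicate 3 was the dimmest at both hours. Fndc5, the precursor of irisin, rose by 1.13 on B (adjusted p = 0.0498), and its other probe set had 0.66 and did not pass. Vegfc and Nrn1 were the falls over all arrays. Of 12 measured regulators of G protein signalling 1 fell, Rgs3 (-1.11, adjusted p = 0.0191, with -1.24 and -0.25 at other probe sets, of which the first passed), and 11 had negative changes. In the batch fit 4 of the 12 fell and 0 rose. Rgs4 had 1404, 1360.5 and 586 at 0 h and 199.6, 194 and 95.8 at 24 h, wholly lower at 24 h, and passed in the batch fit alone (-2.53, adjusted p = 0.0628 and 7.48e-05). Spry1, a feedback inhibitor of growth factor signalling, rose (log2 change 1.26, SE 0.21, adjusted p = 0.00678), and Junb, an immediate early factor, fell (log2 change -0.98, SE 0.17, adjusted p = 0.00801), the only 2 of 33 such genes to pass over all arrays. In the batch fit 2 of the 33 rose and 3 fell. Spry1 passed whichever of the 6 arrays was left out. Fgf21 was lost without 0 h replicate 2 or 24 h replicate 1 or 2 (up to 0.0875 without 24 h replicate 1), Junb without the same 3 (up to 0.0587 without 24 h replicate 2), Fndc5 without 5 arrays (up to 0.192 without 24 h replicate 1) and Rgs3 without 4 (up to 0.115 without 24 h replicate 2).

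Of 27 measured genes of the amino acid response and serine synthesis, 25 had positive changes (median 0.40), 3 rose and 0 fell. Slc7a5, a carrier of large amino acids, had 595, 807 and 1671 at 0 h and 2678, 3118 and 3812 at 24 h (log2 change 1.73, SE 0.30, adjusted p = 0.0085). Atf5, a factor of this response, had 737, 731 and 715 at 0 h and 1778, 2416 and 1395 at 24 h (log2 change 1.29, SE 0.29, adjusted p = 0.0269). Asparagine synthetase (Asns) had 2795, 2835 and 4108 at 0 h and 5414, 5267 and 6115 at 24 h (log2 change 0.80, SE 0.20, adjusted p = 0.047). All 3 lay wholly higher at 24 h. In the batch fit 7 rose and 1 fell, the latter being Ddit4 (-0.75). Slc7a5 missed only without 0 h replicate 2 (0.0582), whereas Atf5 and Asns were each lost without 5 arrays taken singly, up to 0.158 without 24 h replicate 2 and 0.206 without 0 h replicate 2.

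Most members of whole metabolic pathways did not pass over all arrays, where 1.58% of all genes rose and 0.932% fell. Of 80 measured subunits of oxidative phosphorylation 2 rose, the muscle forms Cox6a2 and Cox8b, and 0 fell (median 0.10). Of 32 glycolysis and glycogen genes 5 rose and 2 fell (median 0.05), the rises being Pygm, Pgam2, Pfkm, Fn3k and the phosphorylase kinase subunit Phkb (1.19), and the falls Hk1 and the heart lactate dehydrogenase subunit Ldhb. Ldhb had 942, 1344 and 849 at 0 h and 502, 487 and 640.4 at 24 h (log2 change -0.89, SE 0.20, adjusted p = 0.0249), and its other 3 probe sets fell by 1.19 to 1.39. Pdk4, the kinase that blocks pyruvate oxidation, had 2228, 1776 and 980.0 at 0 h and 688, 771 and 344 at 24 h, wholly lower at 24 h, and passed in the batch fit alone (-1.42, adjusted p = 1.85e-05). Of 34 genes of fatty acid use Fabp3 alone passed over all arrays. In the batch fit 5 oxidative phosphorylation genes rose and 0 fell. There 9 glycolysis and glycogen genes rose and 4 fell, and 2 genes of fatty acid use rose and 4 fell. Of all genes 5.31% rose and 6% fell in that fit. The calls of Phkb and Ldhb ended without 5 and 4 of the arrays, at up to 0.128 without 24 h replicate 1 and 0.135 without 0 h replicate 2.

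Over all arrays, the medians of housekeeping groups lay near that of all genes. Among 43 cytosolic ribosomal proteins (median -0.01), 76 mitochondrial ribosomal proteins (-0.02), 35 ribosome biogenesis genes (0.00) and 36 proteasome subunits (0.05), 0 passed in limma over all arrays. At an unadjusted p under 0.05 the numbers higher and lower were 1 and 1, 1 and 5, 0 and 1, and 2 and 2. In each of these groups the median in replicates 1 and 2 and that in replicate 3 had opposite signs. In the same order they were -0.06 and 0.13, 0.07 and -0.24, 0.04 and -0.04, and 0.18 and -0.08. Of 33 chaperones Herpud1, of the endoplasmic reticulum's degradation pathway, rose (0.89, adjusted p = 0.0353, lost without 5 arrays, up to 0.159 without 24 h replicate 1). At an unadjusted p under 0.05 in limma, 9 chaperones were higher and 0 lower, and 25 of the 33 changes were positive (median 0.13). In the batch fit 7 of them rose and 0 fell, against 5.31% and 6% of all genes. In 5 further lists 0 passed as well, namely 19 integrins and adhesion genes, 20 matrix proteases and inhibitors, 14 genes of IGF signalling, 18 of the circadian clock and 20 of cholesterol synthesis. At an unadjusted p under 0.05 in limma these held 3 higher and 1 lower, 0 and 3, 1 and 1, 3 and 0, and 0 and 1. Igf2, the muscle growth factor, had 9939, 11285 and 7457 at 0 h and 11874, 12288 and 9538 at 24 h (log2 change 0.24, SE 0.27, adjusted p = 0.721, and 0.266 in the batch fit). A dimmer Igf2 probe set had 0.82 and passed in the batch fit alone (adjusted p = 0.458 and 0.0242). Several ribosomal protein genes have near-identical copies, between which probe sets may not discriminate.

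Interferon response genes and class I molecules were mostly lower. Of 9 measured, 8 had negative log2 changes (median -0.55), 1 fell over all arrays, 5 were lower at an unadjusted p under 0.05 in limma, and 5 fell in the batch fit. The class I molecule H2-D1 fell (-1.34, adjusted p = 0.043, lost without 5 arrays, up to 0.193 without 24 h replicate 2), and its other probe set had -1.15 and did not pass (adjusted p = 0.0582). Those that fell in the batch fit alone were Rsad2, Ifi35, Ddx58 and B2m (-0.80, -0.94, -0.67 and -0.55). H2-K1, a close relative of H2-D1, had -0.16, and probe sets may not discriminate between such copies.

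Few markers of other cells the cultures could hold were measured, and those of endothelial cells, leukocytes and fat cells had low sums. Of 14 fibroblast markers 4 were measured and 0 passed, with none at an unadjusted p under 0.05 in limma and a summed intensity of 4573 to 5498 at 0 h and 4581 to 5978 at 24 h. In the batch fit 1 of them rose. Of 15 endothelial markers 5 were measured and 0 passed (645 to 903 at 0 h, 564 to 810 at 24 h), and of 16 macrophage and leukocyte markers 5 were measured and 0 passed (913 to 1196 and 822 to 1096), none of either list at an unadjusted p under 0.05. Of 12 adipocyte markers 4 were measured and 0 passed (856 to 944 and 588 to 893), with 1 lower at an unadjusted p under 0.05 and 1 that fell in the batch fit. The endothelial marker Pecam1, the leukocyte marker Ptprc and the fat cell marker Adipoq were not among the measured genes. A gene that was not measured may have had probe sets too dim for the filter, or none on the chips.

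Of 14 smooth muscle and pericyte markers 9 were measured and 3 rose, with sums of 19230 to 27060 at 0 h and 26680 to 29100 at 24 h. Tagln had 2292, 2341 and 2042 at 0 h and 4159, 3824 and 4263 at 24 h (log2 change 0.87, SE 0.16, adjusted p = 0.0108), and Abcc9 and Smtn rose by 1.46 and 1.13, with 0.94 at another Abcc9 probe set, which did not pass. Of the 9, 4 had negative changes, and the pericyte genes Rgs5 and Notch3 fell in the batch fit (-1.90 and -0.70, adjusted p = 3.03e-05 and 0.0292). The defining gene Acta2 had 0.20 and Myh11 and Cnn1 were not measured. Early skeletal myotubes also express several of these genes. Of 4 measured cartilage markers Col2a1 fell and Sox9 was dim with 0.03, and of 8 measured Schwann cell and neuron markers Erbb3, a neuregulin receptor that muscle also uses, rose (log2 change 1.51, SE 0.23, adjusted p = 0.0042) while Sox10 had 0.35. Of those 8, 5 had negative changes, and Stmn2, of neurons, fell in the batch fit (-1.44, adjusted p = 0.22 and 0.00997). The summed intensities were 1822 to 2272 at 0 h and 912 to 1084 at 24 h for the cartilage list, and 3489 to 4090 and 3824 to 4442 for the Schwann cell and neuron list. The part of these other cells in the results was not tested. Tagln was lost without 24 h replicate 1 (0.0643), Abcc9 without 4 arrays (up to 0.0736 without 0 h replicate 2) and Smtn without 5 (up to 0.19 without 24 h replicate 2), while Erbb3 and Col2a1 passed whichever of the 6 arrays was left out.

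Levels at the other hours place 24 h within the series, as values without a test. Lmcd1 averaged 146 ± 52.3 at 0 h, 427 ± 137 at 12 h, 1231 ± 334 at 24 h and 1388 ± 576 at 48 h (SD, n = 3), and Mef2c 1148 ± 457 at 0 h, 2163 ± 33.4 at 12 h, 4279 ± 1137 at 24 h and 4808 ± 1647 at 48 h (SD, n = 3), both close at 24 h and 48 h. Fgf21 averaged 552 ± 188 at 0 h, 1951 ± 971 at 12 h, 3025 ± 1275 at 24 h and 843 ± 80.3 at 48 h (SD, n = 3), so it was highest at 24 h, and Ckm was likewise at 923 ± 361 at 0 h, 1834 ± 453 at 12 h, 2782 ± 544 at 24 h and 1267 ± 102 at 48 h (SD, n = 3). Smoc2 averaged 1237 ± 139 at 0 h, 364 ± 75.5 at 12 h, 101 ± 58.2 at 24 h and 149 ± 52.8 at 48 h (SD, n = 3) and Id3 4171 ± 1093 at 0 h, 2335 ± 311 at 12 h, 1069 ± 190.4 at 24 h and 1286 ± 383 at 48 h (SD, n = 3), near their 24 h levels at 48 h.

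**Figure D5:**
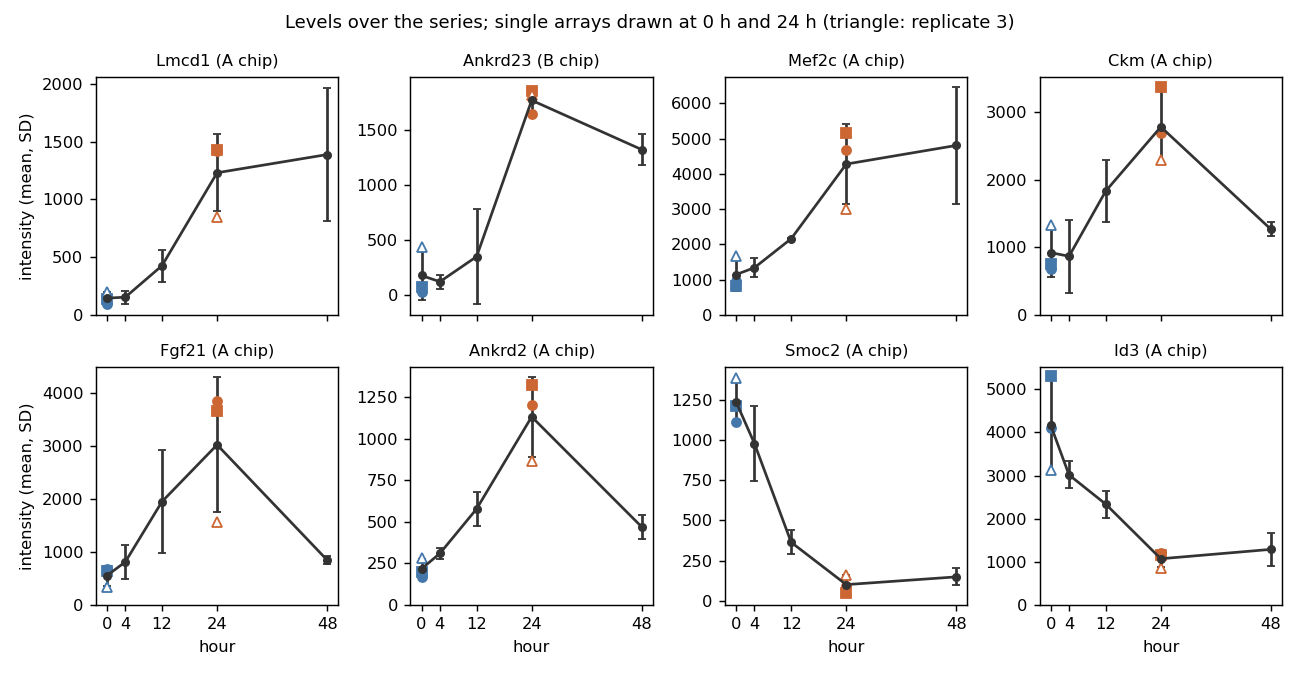
Probe set intensity (vertical axis, mean with SD, n = 3) against hour for 8 genes chosen after their values were seen, with single arrays drawn at 0 h and 24 h and replicate 3 as triangles. Fgf21, Ankrd2, Ankrd23 and Ckm are highest at 24 h among the 5 hours, Lmcd1 and Mef2c are slightly higher at 48 h, and Smoc2 and Id3 are lowest at 24 h.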

How the data were processed

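Total RNA of the cultures was hybridised by the manufacturer's standard protocol, per the labels. The authors deposited linear probe set intensities, already scaled per array; the summary software is not given in the sources used here. No further scaling was applied.

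Each chip was fitted on its own. Intensities were taken as log2(intensity + pseudocount), where the pseudocount was the chip's 20th percentile (29 on A, 54 on B), which understates changes of dim genes. Probe sets in the top 60% of the chip's mean log2 values entered limma 3.58.1 (R 4.3.3) over all 15 arrays of the chip, with hour as factor, an intensity trend and 10 residual degrees of freedom, and called two-sided at a Benjamini-Hochberg adjusted p under 0.05. Only adjusted p-values from limma are printed unless stated otherwise; an exact permutation test of 3 against 3 arrays cannot go below 0.1. The number of arrays limits the precision. The fits were tested on simulated data. Tables and figures used Python 3.11.15, pandas 2.3.3, numpy 2.4.6 and matplotlib 3.10.9.

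A gene was represented by its brightest tested probe set, from A where present, otherwise from B, named through the platform annotation. On A, 20380 probe sets had 1 gene, 691 several and 1555 none; on B, 14661, 245 and 7605. Probe sets with several genes were not named. The members, the 43 gene lists and the tests were chosen with earlier results of these data known. Named genes were the 12 largest non-overlapping calls in each direction on A and 5 on B, up to 4 members per list by adjusted p and up to 2 in the other direction, a short list of muscle and cell cycle genes, and the isoform pairs. Members given outside that rule, mostly ones that did not pass, were chosen after their values were seen.

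Same-numbered arrays deviated together on A (correlations of 0.373, 0.361 and 0.595 across probe sets), and the replicate block is given beside the count on that chip. Replicate 1 at 0 h correlated at 0.329 with replicate 2 at 24 h, and replicate 2 at 0 h at 0.309 with replicate 1 at 24 h. These values are close to those of equal numbers, so they do not show that the numbers 1 and 2 pair arrays. Comparisons of other hours with 0 h share the 0 h arrays and were not tested here. Proteins were not used here.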

Additional observations from a re-analysis of the deposited data

How the results depend on the processing

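On A and B, where 362 and 115 probe sets passed, the counts became 1771 and 556 with replicate 3 as a batch term, 1663 and 487 with the replicate block, 2036 and 696 from replicates 1 and 2 alone, 2392 and 328 with array quality weights, and 171 and 59 from the 0 h and 24 h arrays only. Without the intensity trend B had 66. With an array left out, A had between 60 and 636 and B between 34 and 211. The cause was not tested. Quantile normalization, median centring, other pseudocounts and other filters on dim probe sets kept both counts within 1.5 times. On B the numbers were not taken to pair arrays, since replicate 1 correlated at only 0.0821 between the hours (0.128 and 0.289 for replicates 2 and 3). Over 121 named genes, 1822 of the values under these settings kept their side of the threshold, and 298 lost and 42 gained a call. None turned its direction where the gene passed in the main fit or under the setting. Genes that passed in neither could change sign, as Cox6a1 did from 0.01 to -0.05 with quantile normalization. The upper 40% filter gave values for 105 of the genes.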

Other observations

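Outside every list, 223 genes passed at 24 h, 127 higher and 96 lower, and 29 of the 223 passed whichever array was left out. The genes named next were chosen after their values were seen. Smpx, a small protein of striated muscle, averaged 1504 ± 390.3 at 0 h and 5449 ± 649 at 24 h (SD, n = 3; log2 change 1.86, limma adjusted p = 0.00196). Tmem182, a muscle membrane protein, averaged 5191 ± 518 and 17181 ± 3505 (1.70, limma adjusted p = 0.00476). Prkag3, the muscle gamma subunit of AMP-activated kinase, averaged 887 ± 120.0 and 3098 ± 951 (1.71, limma adjusted p = 0.00575). Mss51 and Acsl6, a mitochondrial protein of muscle and an acyl-CoA synthetase, rose by 1.98 and 1.52 on the log2 scale. All 5 genes lay wholly higher at 24 h.

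Among the falls, Nfkbia, an inhibitor of NF-kappa-B, averaged 4709 ± 361 at 0 h and 2109 ± 99.4 at 24 h (SD, n = 3; log2 change -1.15, limma adjusted p = 0.00196). Gas6, a ligand of TAM receptors, and Tapbp, which loads class I molecules, changed by -1.33 and -1.08. These 3 falls and the 5 rises above passed whichever array was left out. The homeobox genes Prrx2 and Dlx3 changed by -1.35 and -1.41, and their calls ended without 3 and 4 of the arrays, left out singly, with the highest limma adjusted p at 0.101 and 0.14, both without 0 h replicate 2.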
